A study of Mus musculus with 8 samples.

Results

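Replication timing was examined at 8 genes that encode naive pluripotency transcription factors, namely Klf2, Klf4, Klf5, Esrrb, Tfcp2l1, Tbx3, Nr0b1 and Prdm14. The genes were taken by name, and each was given the timing score of the 5 kb position nearest to its midpoint on mm10, together with the profile 1 Mb to either side. They are 8 of the 21519 protein-coding genes with a score. The study profiled replication timing genome-wide in mouse embryonic stem cells (mESC) that were controls or had been collected 2 days after dTAG. The series names YY1 as the depleted protein and dTAG as the treatment, and dTAG compounds mark a tagged protein for degradation. For culture and treatment the labels refer to an earlier publication, the sources used here do not give the cell line or its clones, and the extent of YY1 loss was not analysed here. Cells were pulsed with BrdU for 2 h and separated by flow cytometry into an early and a late S phase fraction of 40000 cells each, from which the labelled DNA was immunoprecipitated and sequenced. The 8 samples gave 4 profiles, with replicates 1 and 2 of the control and replicates 1 and 2 of dTAG. Nothing in the labels states that the replicates came from separate cultures, so every SD and test measures the spread between these profiles, which may be technical.

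Naive factors keep embryonic stem cells in the state of the pre-implantation epiblast. Klf4 is induced by the cytokine LIF through STAT3, Esrrb and Tfcp2l1 are released from repression when GSK3 is inhibited and beta-catenin accumulates, and Prdm14 restrains FGF signalling and DNA methylation. Replication timing is the order in which chromosome domains are copied in S phase, and active, gene-rich chromatin usually replicates early. YY1 is a zinc finger protein that binds many promoters and enhancers and can link them.

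The score is signed and has no stated formula, log base or direction, so differences are given in score units. High scores were read as early, because 98.8% of the scores of 80 cytosolic ribosomal protein genes lay above 0, against 1.25% of those of 20 long neuronal and fragile-site genes. The profiles of replicate number 1 had a mean of 0.199 and those of number 2 a mean of -0.199, so levels differed between the numbers by construction and 0 is not a fixed boundary between early and late. Number 1 ran from -5.938 to 6.201 and number 2 from -6.201 to 5.938. The values of number 2 were thus distributed like those of number 1 with the sign reversed, which is more than a constant offset. For dTAG replicate 1 the titles and the fraction labels disagree on which library is early. Every result that uses dTAG 1 rests on the profile as deposited, which had a Pearson r of 0.910 (Esrrb) to 0.999 (Klf4 and Klf5) with control 1 over the 400 positions around each of the 8 genes, positions that are smoothed together and not independent. Read depth is unknown, and the number of profiles limits the precision.

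Of the 8 genes, 7 were early replicating in controls and lay close together, and Nr0b1 stood apart near the middle of the scale. The control mean of the 7 ranged from 3.60 at Tfcp2l1 to 4.09 at Esrrb, above the median of 3.24 over all genes. Nr0b1, which encodes the orphan nuclear receptor DAX1, had a control mean of 0.79 ± 0.27 (SD, n = 2). All 8 genes scored above 0 in all 4 profiles, against 77.5% of all genes. The lowest of these scores was 0.10, at Nr0b1 in dTAG 1. The count was 7 with all profiles on one distribution and 5 with profiles centred on their medians over genes. Centring puts the median gene of each profile at 0, and no share of all genes is given for either setting. The 77.5% is therefore not a comparison for the counts of 7 and 5. In falling order of control mean the genes were Esrrb, Tbx3, Klf5, Prdm14, Klf4, Klf2, Tfcp2l1 and Nr0b1. In 6 of the 7 neighbouring pairs of this order the gap, 0.006 to 0.186, was smaller than the larger of the SDs of the pair, which hold the offset between replicate numbers that both genes share. Klf5 scored above Prdm14 in all 4 profiles, by 0.086 to 0.685, and the other 5 of these pairs held their order in 1 or 2 of the 4. The gap from Tfcp2l1 down to Nr0b1 was 2.80, and it was at least 2.78 in each of the 4 profiles. Among all genes the control means of the 7 fell between percentile 58.4 (Tfcp2l1) and percentile 77.2 (Esrrb), so they were early but not among the earliest. Nr0b1 fell at percentile 24.4 of all genes and at percentile 49.3 of the 963 genes on chromosome X.

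**Figure D1:**
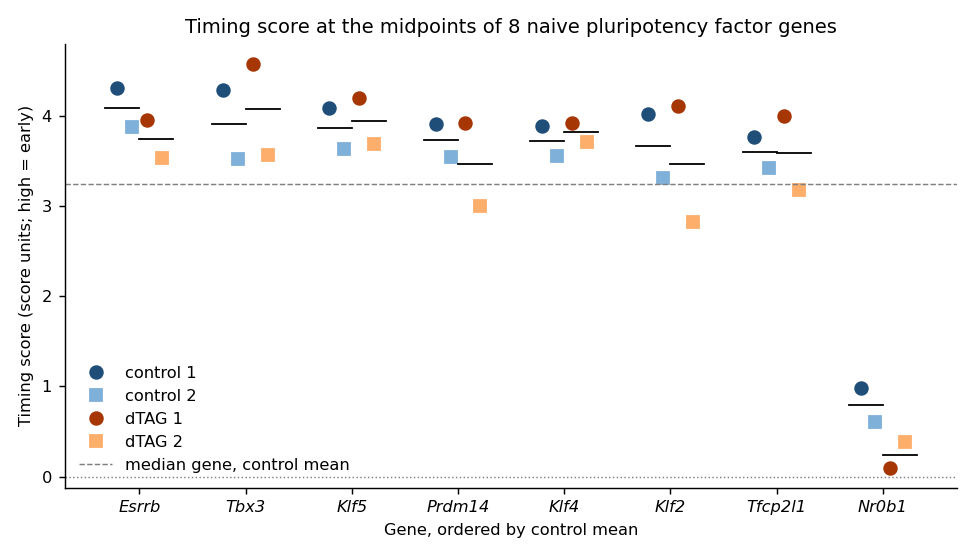
Timing score (score units, high read as early) at the midpoint of each of the 8 genes in the control and dTAG profiles; black lines are group means (n = 2), the dashed line is the median control mean over all genes (3.24) and the dotted line is 0. The control means of 7 genes lie between 3.60 and 4.09, Nr0b1 lies at 0.79, and dTAG and control points overlap at every gene except Nr0b1.

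Because YY1 is the depleted protein, the promoters of the genes were searched for its core letters. Promoter sequences, 250 bases before to 50 bases after an annotated start, were taken from RefSeq on GRCm38.p6, the assembly behind mm10. They were found for 5 of the 8 genes, namely Klf2, Klf4, Esrrb with 2 starts, Tfcp2l1 and Nr0b1, which gives 6 promoters. Sequences for Klf5, Tbx3 and Prdm14 are not shown. The letters CCATNTT, a common form of the YY1 site, occurred on neither strand in any of the 6 promoters, against 15.1% of 21044 promoters in the table. The shorter core GCCAT occurred on either strand in 38.8% of all promoters and in 4 of the 6. It was found 3 times each at Klf2 and Nr0b1, once at Klf4 and once at the first Esrrb start. At Klf2 and Nr0b1, 2 of the 3 matches overlap, one on each strand, just after the start. Together they form GCCATGGC, which reads the same on both strands, so 1 stretch of letters was counted on each strand. The 4 promoters with a match are shown 5′ to 3′ on the strand of the gene, because they allow the letters to be read beside the timing values. The Nr0b1 window is chrX:86191525-86191824 on the plus strand, Klf2 is chr8:72318812-72319111 on the plus strand, Klf4 is chr4:55532426-55532725 on the minus strand, and Esrrb is chr12:86360867-86361166 on the plus strand. Capitals mark GCCAT or its reverse complement ATGGC.
Nr0b1: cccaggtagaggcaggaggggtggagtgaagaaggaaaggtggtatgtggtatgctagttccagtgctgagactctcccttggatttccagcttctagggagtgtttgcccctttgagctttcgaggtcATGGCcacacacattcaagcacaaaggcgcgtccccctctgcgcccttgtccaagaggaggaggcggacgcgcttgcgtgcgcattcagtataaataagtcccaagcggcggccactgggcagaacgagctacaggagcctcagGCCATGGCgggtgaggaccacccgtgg
Klf2: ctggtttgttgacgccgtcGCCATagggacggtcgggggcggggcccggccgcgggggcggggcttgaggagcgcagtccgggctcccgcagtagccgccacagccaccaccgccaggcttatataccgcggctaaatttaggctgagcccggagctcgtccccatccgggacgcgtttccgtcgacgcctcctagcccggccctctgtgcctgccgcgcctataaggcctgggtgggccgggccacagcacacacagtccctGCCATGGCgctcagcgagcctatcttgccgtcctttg
Klf4: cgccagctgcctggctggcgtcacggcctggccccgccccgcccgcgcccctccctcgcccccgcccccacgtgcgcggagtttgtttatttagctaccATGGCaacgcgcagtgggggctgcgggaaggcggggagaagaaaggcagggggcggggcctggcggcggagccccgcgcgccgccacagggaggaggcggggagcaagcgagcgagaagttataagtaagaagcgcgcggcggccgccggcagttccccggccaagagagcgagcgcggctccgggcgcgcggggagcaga
Esrrb: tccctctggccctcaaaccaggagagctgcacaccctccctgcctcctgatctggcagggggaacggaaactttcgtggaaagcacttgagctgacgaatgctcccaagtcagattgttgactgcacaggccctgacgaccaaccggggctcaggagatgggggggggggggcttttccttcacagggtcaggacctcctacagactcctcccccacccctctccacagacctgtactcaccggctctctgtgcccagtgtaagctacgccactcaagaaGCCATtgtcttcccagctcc
The promoters differ in base composition. The Klf4 promoter had 40 CpG dinucleotides and 74.3% G or C, the Klf2 promoter had 32 and 69.3%, and the Nr0b1 promoter had 14 and 58.7%. The Esrrb promoter shown had 7 CpG dinucleotides, below the median of 13 over all promoters. Klf2 and Nr0b1 thus had equal counts of the core letters, each count including that stretch read on both strands, while their control timing scores were 3.67 and 0.79. A match is a run of letters and not a bound site, and binding was not analysed here.

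The KLF factors are zinc finger activators with overlapping targets in the naive network. Klf2 (chr8:72319062-72321654) scored 4.02 and 3.31 in controls 1 and 2, and 4.11 and 2.83 in dTAG 1 and 2. The dTAG mean was 3.47 ± 0.91 (SD, n = 2) against 3.67 ± 0.50 (SD, n = 2) in control, a difference of -0.20 ± 0.55 (SE). The difference was 0.09 within replicate number 1 and -0.49 within number 2, so the direction was not shared, and the profiles of the groups overlapped. Klf2 sits in the right part of an early stretch, defined as the run of scores above 0 around the midpoint, that measured 4.39 Mb in control 1, 4.38 Mb in control 2, 4.85 Mb in dTAG 1 and 4.38 Mb in dTAG 2. Its right end lay 715 to 740 kb from the gene in all 4 profiles, where the score passed below 0 and reached -1.31 to -1.70.

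Klf4 (chr4:55527137-55532475), a target of LIF and STAT3 and a reprogramming factor, scored 3.88 and 3.56 in controls 1 and 2 and 3.93 and 3.71 in dTAG 1 and 2. Both dTAG values were above the control value of the same number, by 0.04 and 0.15, but dTAG 2 lay below control 1. With each profile centred on its median over genes, both dTAG values at Klf4 lay above both controls. The means were 3.72 ± 0.23 (SD, n = 2) in control and 3.82 ± 0.15 (SD, n = 2) in dTAG, and the difference was 0.10 ± 0.33 (SE). The gene lies near the top of a separate early domain of 1165 to 1370 kb that falls below 0 on both sides. The left edge of this domain lay 960 and 845 kb from the gene in controls 1 and 2, and 990 and 915 kb in dTAG 1 and 2. Within each replicate number the left edge was farther out in dTAG, while the right edge lay 360 and 315 kb away in controls and 375 and 315 kb in dTAG. The mean score over the left flank was 0.08 higher in dTAG within number 1 and 0.48 higher within number 2. At 390 kb left of the gene, where the mean difference around Klf4 was largest, controls scored 3.52 and 3.08 and dTAG 3.61 and 4.0, so dTAG 2 supplied most of it.

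Klf5 (chr14:99298691-99313412), a Krüppel-like factor that also acts in trophectoderm, scored 4.09 and 3.64 in controls 1 and 2 and 4.20 and 3.69 in dTAG 1 and 2. The differences were 0.11 and 0.05 within the numbers, against a gap of 0.45 between the controls. Group means were 3.86 ± 0.32 (SD, n = 2) and 3.94 ± 0.36 (SD, n = 2), and the difference was 0.08 ± 0.37 (SE). To the left of Klf5 the score fell through 0 at 480 and 460 kb in controls 1 and 2 and at 470 and 445 kb in dTAG 1 and 2, and reached -3.83 to -5.23. The gene thus sits at the top of a steep slope whose crossing point moved by 10 and 15 kb with dTAG, against 20 kb between the controls. On the right the early stretch ended at 640 kb in control 2 and dTAG 2 and at 1295 and 1260 kb in control 1 and dTAG 1, a difference that followed the replicate number.

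Esrrb (chr12:86361117-86521628), which encodes an orphan nuclear receptor repressed by TCF7L1, was the earliest of the 8 genes in control. It scored 4.31 and 3.88 in controls 1 and 2 and 3.96 and 3.53 in dTAG 1 and 2. Both dTAG values were below the control value of the same number, by the same amount to 2 decimals (-0.35 and -0.35), but dTAG 1 lay above control 2. The means were 4.09 ± 0.30 (SD, n = 2) in control and 3.74 ± 0.31 (SD, n = 2) in dTAG, and the difference was -0.35 ± 0.36 (SE). With each profile centred on its median over genes, both dTAG values at Esrrb lay below both controls. The difference was -0.13 without control 1 and -0.56 without control 2. Its size also depended on the position taken in this gene of 160512 bases. It was -0.17 at the annotated start and -0.27 for the mean within 100 kb of the midpoint. All positions within 1 Mb of Esrrb scored above 0 in all 4 profiles, within an early stretch of 5.10 to 5.30 Mb. The region was not lower throughout, since both dTAG profiles lay above both controls at 50 of its 400 positions and below at 50. Over all positions in the genome these orders were found at 10.9% and 8.66%. The lowest mean difference lay 720 kb right of the gene, where controls scored 5.33 and 4.76 and dTAG 4.49 and 4.17.

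Tfcp2l1 (chr1:118627923-118685168), a CP2 family factor that sustains self-renewal downstream of LIF and of GSK3 inhibition, scored 3.77 and 3.43 in controls 1 and 2 and 4.0 and 3.18 in dTAG 1 and 2. The dTAG profiles lay outside the controls on both sides. The difference was 0.23 within number 1 and -0.24 within number 2, and the means were 3.60 ± 0.24 (SD, n = 2) and 3.59 ± 0.58 (SD, n = 2), a difference of -0.01 ± 0.41 (SE). That sign turned to 0.04 when profiles were centred on their medians over genes. The gene lies in a dip, with a control peak 190 kb to its left that was 1.27 higher than the midpoint. The left edge of its early stretch lay 615 to 635 kb away in all 4 profiles.

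Tbx3 (chr5:119670534-119684724), a T-box factor linked to PI3K signalling, scored 4.29 and 3.53 in controls 1 and 2 and 4.58 and 3.57 in dTAG 1 and 2. The means were 3.91 ± 0.54 (SD, n = 2) in control and 4.07 ± 0.71 (SD, n = 2) in dTAG, with a difference of 0.17 ± 0.50 (SE). Both differences within the numbers were above 0, at 0.29 and 0.04, while the numbers themselves differed by 0.76 in control and by 1.01 in dTAG. Tbx3 lies in the longest early stretch of the 8 genes, 16.5 to 16.9 Mb, and no position within 1 Mb of it fell below 0 in any profile.

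Prdm14 (chr1:13113428-13127163), a PR domain protein that recruits repressors to FGF pathway and DNA methylation genes, scored 3.91 and 3.55 in controls 1 and 2 and 3.92 and 3.01 in dTAG 1 and 2. The low value was dTAG 2 alone, so the difference was 0.02 within number 1 and -0.54 within number 2. The means were 3.73 ± 0.25 (SD, n = 2) and 3.46 ± 0.65 (SD, n = 2), a difference of -0.26 ± 0.44 (SE). Over the 1 Mb on each side of Prdm14 the mean difference was 0.22 within number 1 and 0.34 within number 2. The flanks thus went the other way from the midpoint within number 2 only. Both dTAG profiles lay above both controls at 110 of the 400 positions within 1 Mb of the gene, against 10.9% of positions in the genome. They lay below both controls at none of the 400, against 8.66%. Neighbouring positions are smoothed together and not independent. Control 2 was the lowest of the 4 profiles at 272 of the 400 positions. The left edge of the early stretch lay 750 and 635 kb away in controls 1 and 2 and 775 and 740 kb away in dTAG 1 and 2. At 920 kb left of the gene, controls scored -0.79 and -2.10 and dTAG -0.45 and -0.99, the highest mean difference around Prdm14. Slco5a1, the nearest gene to the left, had a control mean of 3.93 ± 0.41 (SD, n = 2) and a dTAG mean of 4.34 ± 0.71 (SD, n = 2), and its differences were 0.20 and 0.63 within the numbers.

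Nr0b1 (chrX:86191775-86195947), whose product binds and restrains pluripotency regulators and is itself induced through STAT3, was the only one of the 8 genes at which both dTAG profiles lay below both controls. It scored 0.99 and 0.60 in controls 1 and 2 and 0.10 and 0.39 in dTAG 1 and 2. The means were 0.79 ± 0.27 (SD, n = 2) in control and 0.24 ± 0.20 (SD, n = 2) in dTAG, and the difference of -0.55 ± 0.34 (SE) had an adjusted p of 0.9999 in limma. Within the numbers the differences were -0.89 and -0.21. The difference was -0.36 without control 1 and -0.74 without control 2. Such a count of 1 gene in 8 stands beside 8.42% of all genes with both dTAG profiles below both controls.

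Control 1 stood apart over much of the Nr0b1 region. It was the highest of the 4 profiles at 308 of 400 positions within 1 Mb, and lay 0.65 above the mean of the other profiles on average. The mean difference over the region was -0.56 within number 1 and -0.03 within number 2. At 495 kb to the right, where the mean difference was lowest, control 1 scored -0.92, control 2 -3.04, dTAG 1 -2.42 and dTAG 2 -3.85. The early stretch around Nr0b1 was short, 410 and 250 kb in controls 1 and 2 and 205 and 255 kb in dTAG 1 and 2. Its right edge lay 110 and 65 kb from the midpoint in controls and 15 and 55 kb in dTAG. Both dTAG edges were nearer to the gene than both control edges, by 10 kb within number 2. The nearest genes shared this pattern in number 1. Mageb4, 59.4 kb to the right, differed by -0.92 and -0.13 within the numbers, and Samt3, 148.1 kb to the left, by -0.72 and 0.02.

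**Figure D2:**
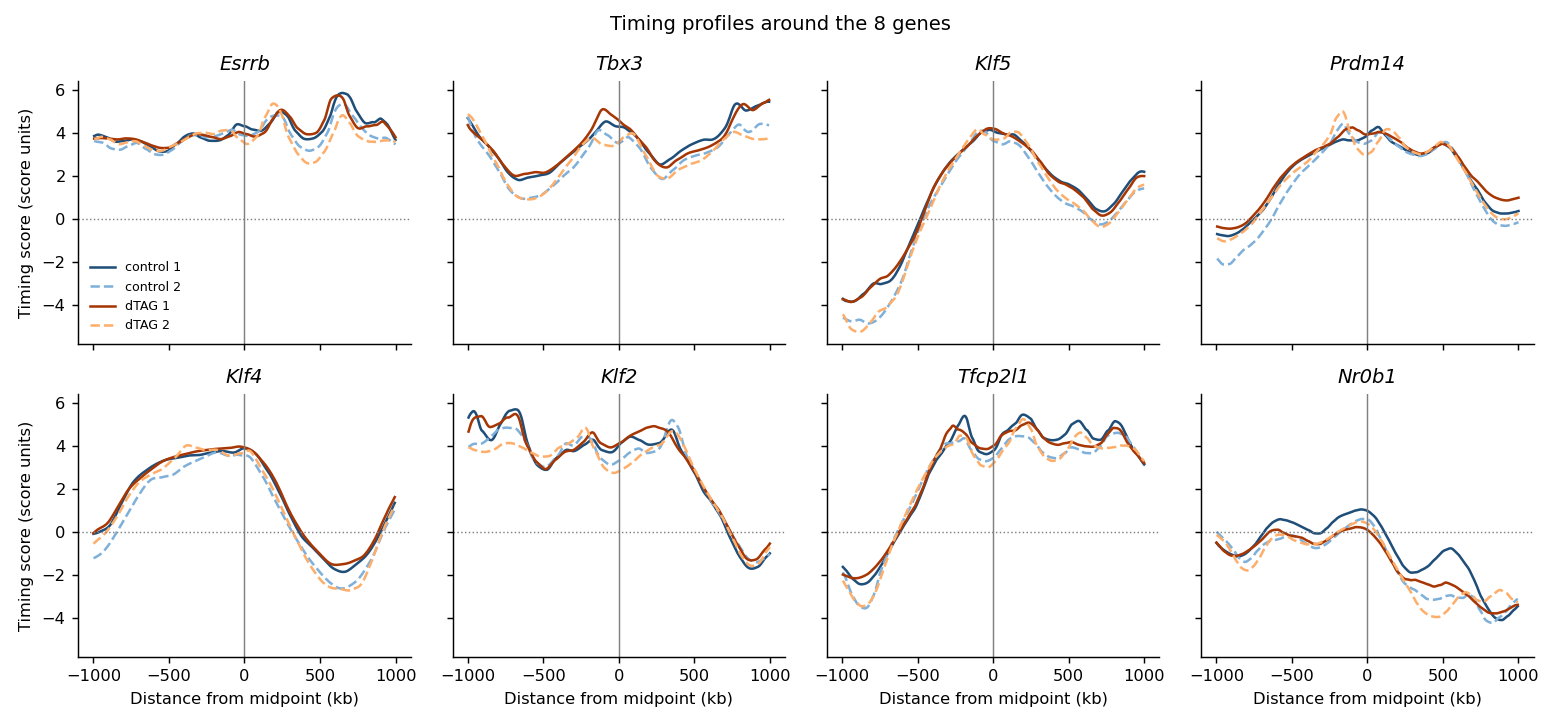
Timing score (score units) against distance from the midpoint of each gene (kb, 1000 kb to either side) in the 4 profiles, solid lines for replicate number 1 and dashed lines for number 2; the vertical line marks the midpoint and the dotted line 0. The lines of control and dTAG run together at most genes. Numbers 1 and 2 separate at the low ends around Klf4, Klf5 and Tfcp2l1, but not around Klf2. Control 1 runs above the other 3 profiles over much of the Nr0b1 region, by 0.65 on average.

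No gene of the 8 passed limma's test at an adjusted p of 0.05 (lowest adjusted p of 0.9999, 2-sided, Benjamini-Hochberg over 21519 genes), and none had an unadjusted p under 0.05. Over all genes 0.0% were called and 171 had an unadjusted p under 0.05. For a single gene an exact permutation of 4 profiles has 3 splits and a smallest 2-sided p of 0.333. The SE of the difference ranged from 0.33 at Klf4 to 0.55 at Klf2, and includes the offset between replicate numbers, for which this model has no term. A missed threshold does not show that timing was alike in the groups. The median difference over the 8 genes was -0.10, with 0.06 within number 1 and -0.23 within number 2. Over all genes these medians were -0.02, 0.01 and -0.08. Normalization gave control and dTAG of the same number nearly the same ranked values. A shift shared by the whole genome could therefore not be seen. The median size of the difference was 0.18 both for the 8 genes and for all genes.

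The difference had the same sign in both numbers at 5 of the 8 genes. It was above 0 in both at Klf4, Klf5 and Tbx3, which is 3 of 8 against 25.3% of all genes, and below 0 in both at Esrrb and Nr0b1, which is 2 of 8 against 30.6%. Both dTAG profiles lay above both controls at 0 of the 8 genes, against 10% of all genes. With each profile centred on its median over genes, that order was found at 1 of the 8 genes, Klf4, against 14.1% of all genes, and the opposite order at Esrrb and Nr0b1, 2 of 8, against 10.2%. The median size of the difference between treatments was 0.17 within number 1 and 0.23 within number 2. Between the numbers the authors' normalization left unlike levels and unlike distributions, so gaps between numbers are not a measure of replicate error alone. Centring profiles on their medians does not make these distributions alike. Control 2 scored lower than control 1 at 8 of 8 genes, against 82.4% of all genes, and dTAG 2 lower than dTAG 1 at 7 of 8, all but Nr0b1, against 79.5%. The median size of these gaps was 0.41 between controls and 0.66 between dTAG profiles for the 8 genes, and 0.47 and 0.53 for all genes. Leaving out 1 of the 4 profiles turned the sign of the difference at 6 of the 8 genes, all but Esrrb and Nr0b1.

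**Figure D3:**
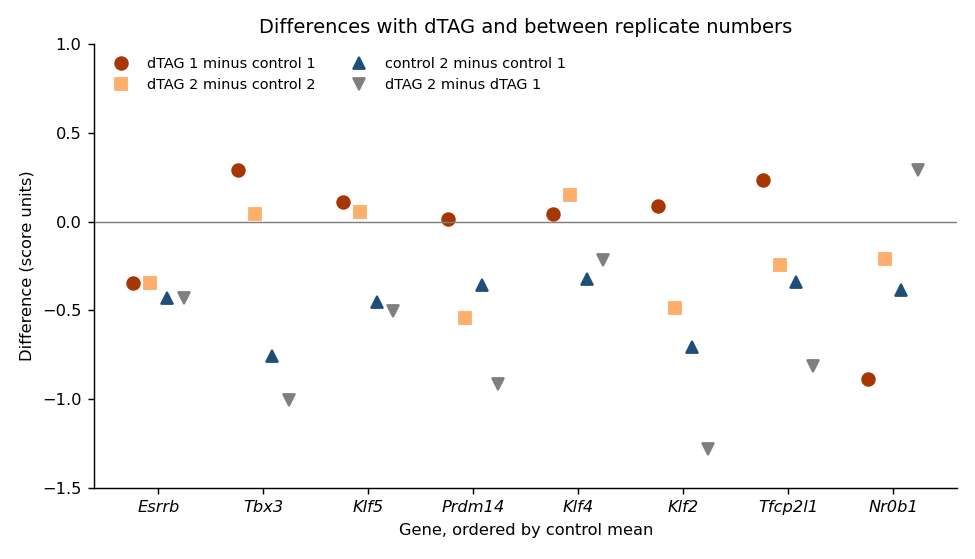
Differences in timing score (score units) at each gene: dTAG minus control within replicate numbers 1 (circles) and 2 (squares), and number 2 minus number 1 within control (upward triangles) and within dTAG (downward triangles). The treatment differences lie on both sides of 0, from -0.89 at Nr0b1 to 0.29 at Tbx3, and the gaps between numbers lie below 0 except for dTAG at Nr0b1.

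The surrounding 1 Mb on each side held 3200 positions for the 8 genes together. At none of them did both dTAG profiles lie at least 0.5 above both controls, against 0.548% of the 514245 positions in the genome, or at least 0.5 below them, against 1.1%. With shifts of any size counted, the dTAG profiles were both higher than the controls at 323 of the 3200 positions, against 10.9% of positions in the genome. They were both lower at 134 of the 3200, against 8.66% of positions in the genome. Prdm14 gave 110 of the 323, Klf4 60, Klf2 55 and Esrrb 50. Of the 134, Nr0b1 gave 57 and Esrrb 50. Neighbouring positions were smoothed together and are not independent. The count of 0 at 0.5 units became 12 at 0.25 units and 19, all lower in dTAG and all around Esrrb, when the 4 profiles were brought to one distribution. No share over all positions is given for these settings, so the counts of 12 and 19 cannot be set against the genome.

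In the control mean, most of the genes lay near local maxima of timing, which usually mark the earliest copied sites of a domain. A peak was taken as the position of the control mean that was highest within 200 kb on either side, and the genome held 3230 of them. At 5 of the 8 genes the midpoint lay within 100 kb of a peak, against 34.0% of all genes. The nearest peak lay 5 kb left of Klf4, 40 kb left of Nr0b1, 60 kb left of Klf5, 75 kb right of Prdm14 and 100 kb left of Tbx3. Tfcp2l1, Klf2 and Esrrb were 190 to 230 kb from one. The count rests on the controls used: it was 3 in control 2 alone and 7 in control 1 alone. The nearest peak of the dTAG mean was 60 kb left of Nr0b1 and 90 kb left of Klf5. It was 105 kb left of Tbx3, 125 kb right of Prdm14 and 360 kb left of Klf4. Tfcp2l1, Klf2 and Esrrb were 205 to 215 kb from one. The Klf4 peak of the dTAG mean was only 0.02 above the midpoint. Single profiles peaked 5 and 180 kb left of Klf4 in controls 1 and 2, and 35 and 375 kb left in dTAG 1 and 2. At Prdm14 the nearest peak lay 70 and 90 kb right in controls 1 and 2. It lay 100 kb left in dTAG 1 and 135 kb right in dTAG 2. Peak positions thus also differed between profiles of the same group.

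The early scores of these genes were found in regions with few genes. The median number of other protein-coding genes with a midpoint within 1 Mb was 7.5 for the 8 genes and 29 for all genes. Klf4 had 2 such neighbours, Klf5 5, Nr0b1 and Prdm14 6 each, Tfcp2l1 9 and Tbx3 13. Esrrb with 27 was near the median, and Klf2 with 53 was at percentile 78.5. Genes with at most 15 such neighbours, the lowest quartile by this measure with its ties, numbered 5662, of which 26.6% had a control mean above 3 and 60.0% scored above 0 in all 4 profiles. Of the 6 naive factor genes among them, 5 had a control mean above 3, Nr0b1 being the other. This grouping by gene density was chosen after the values were seen and is given without a test.

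**Figure D4:**
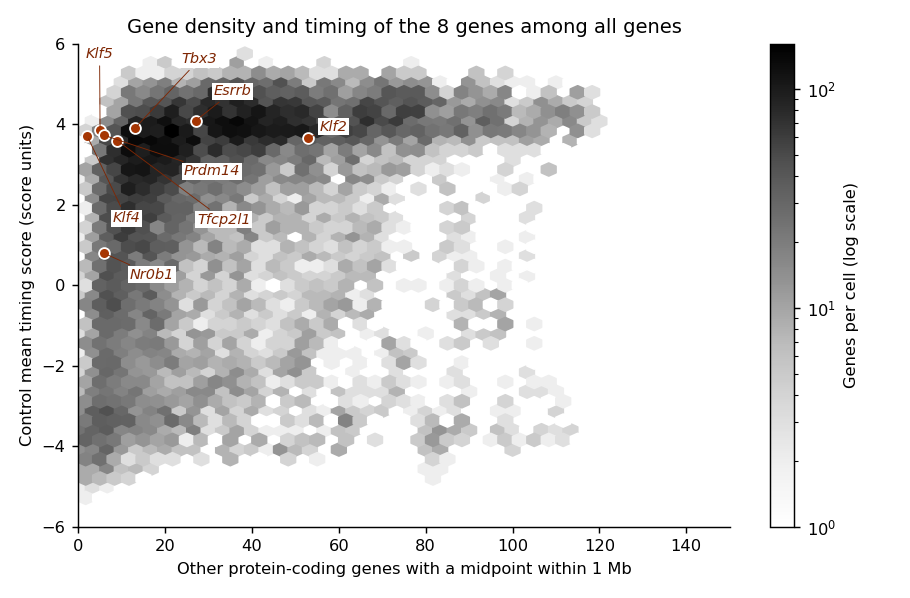
Control mean timing score (score units) against the number of other protein-coding genes with a midpoint within 1 Mb; grey cells count all genes on a log scale and red points are the 8 naive factor genes. Klf4, Klf5, Prdm14, Tfcp2l1 and Tbx3 lie at 13 neighbours or fewer with scores of 3.60 or more, where low scores are common.

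Levels of the nearest genes ran from close to the naive factor to well away from it. Ap1m1 and Eps15l1, beside Klf2, had control means of 3.43 ± 0.39 and 4.0 ± 0.53 (SD, n = 2), either side of the 3.67 of Klf2. Rad23b, left of Klf4, had a control mean of 3.71 ± 0.06 (SD, n = 2), close to the 3.72 of Klf4, and the nearest gene to the right, Actl7b, was 1211 kb away. Pibf1, left of Klf5, had a control mean of 3.71 ± 0.11 (SD, n = 2), while Klf12, another Krüppel-like factor gene 770 kb to the right of Klf5, had 0.21 ± 0.41 (SD, n = 2). Tbx5, a T-box gene active in heart and limb, lies 163.2 kb right of Tbx3 and had a control mean of 3.24 ± 0.26 (SD, n = 2), against 3.91 at Tbx3. Med13l, 1015 kb to the left of Tbx3, had 4.88 ± 0.08 (SD, n = 2). Earlier than the naive factor were also Vash1 at 4.87 ± 0.14 (SD, n = 2), right of Esrrb, and Clasp1 and Gli2, on the 2 sides of Tfcp2l1, at 4.32 ± 0.57 and 4.40 ± 0.52 (SD, n = 2). Gpatch2l, left of Esrrb, had 3.77 ± 0.18 (SD, n = 2) and Ncoa2, right of Prdm14, had 3.80 ± 0.05 (SD, n = 2). All 53 neighbours of Klf2, all 27 of Esrrb and all 13 of Tbx3 scored above 0 in all 4 profiles, against 1 of the 6 neighbours of Nr0b1. To the right of Nr0b1 the score fell to between -3.77 and -4.22 in the 4 profiles.

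Genes elsewhere in the genome with the most similar 4 scores were sought for the highest and lowest of the 8 genes by mean over all profiles, using the Euclidean distance. Those nearest to Tbx3 were Hps5 (0.07), Vps9d1 (0.08) and Tekt1 (0.10), on other chromosomes. Those nearest to Nr0b1 were Ifit3b (0.20), Vgll2 (0.23) and Lhfp (0.30). In all, 859 genes lay within 0.5 of Tbx3 and 18 within 0.5 of Nr0b1, so the 4 scores of Tbx3 had many near matches on other chromosomes and those of Nr0b1 few.

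Of 35 genes of the LIF and STAT3, WNT and GSK3, and FGF and ERK pathways, 34 scored above 0 in all 4 profiles, against 77.5% of all genes, 0 passed limma's test, and the median difference was -0.01. In the LIF and STAT3 list 10 of 10 were early, the median control mean was 3.80 and the median difference was -0.11. Lif, the cytokine gene, scored 4.56 and 4.67 in controls and 4.37 and 3.80 in dTAG, so both dTAG values lay below both controls, with an adjusted p of 0.9999 in limma. Jak1, the kinase that activates STAT3, was the other gene of the list with that order (2 of 10, against 8.42% of all genes), with 3.46 and 3.55 in controls and 3.32 and 3.18 in dTAG. Stat3 itself scored 4.92 and 4.16 in controls and 5.08 and 4.39 in dTAG, and the groups overlapped. Myc was the lowest gene of the list, with a control mean of 2.77 ± 0.95 (SD, n = 2).

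In the WNT and GSK3 list 10 of 10 were early and the median difference was 0.00. Its range in controls ran from 1.82 ± 1.35 (SD, n = 2) at Lef1, a partner of beta-catenin, to 4.78 ± 0.69 (SD, n = 2) at Tcf7l1, the repressor of Esrrb. Cdx1 had the highest difference, 0.35, and Axin2, a feedback inhibitor, the lowest, -0.13. In the FGF and ERK list 14 of 15 were early and the median difference was 0.12. The exception was Dusp6, an ERK phosphatase, with 0.35 and -0.98 in controls and 0.17 and -0.57 in dTAG, where the sign followed the replicate number. Egr1 had the highest control mean of that list, 4.95 ± 0.59 (SD, n = 2). Fgf4, the ligand made by the stem cells, differed by 0.84 and -0.26 within the numbers, and Grb2, the adaptor, by -0.02 and -0.36. At Sos1 and Fgfr2, 2 of 15, the dTAG values were both above the controls, against 10% of all genes.

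Paralogs of the naive factors include both early and late genes. Of 46 paralogs 36 scored above 0 in all 4 profiles, against 77.5% of all genes, their control means ran from -4.84 to 4.78, their median difference was -0.02 and 0 passed limma's test. Among 14 other KLF genes, 11 were early in all profiles. Klf16 was the earliest, with a control mean of 4.22 ± 0.94 (SD, n = 2), and Klf7 the latest, with -1.83 ± 1.44 (SD, n = 2) in control and -0.87 ± 0.81 (SD, n = 2) in dTAG. Klf6, an immediate early gene, scored 0.17 and -0.69 in controls and 1.45 and 0.96 in dTAG. Both dTAG values lay above both controls, by 1.28 and 1.65 within the numbers, and the adjusted p in limma was 0.9999. Klf17 also had both dTAG values above both controls, with 3.84 and 3.80 in controls against 3.87 and 4.23 in dTAG. Klf15 had the opposite order, with differences of -0.17 and -0.85. Such orders were found at 2 (higher) and 1 (lower) of these 14 KLF genes, against 10% and 8.42% of all genes. In the deposited scores none of the 3 KLF genes among the naive factors had one, and Klf4 gained the higher order when profiles were centred on their medians.

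Among relatives of the nuclear receptor genes, Esrra, an oestrogen-related receptor gene chosen after its values were seen, had a control mean of 4.06 ± 0.24 (SD, n = 2), close to Esrrb at 4.09, whereas Esrrg had -4.84 ± 1.43 (SD, n = 2), the lowest of all paralogs. Nr0b2, the only other gene of its receptor class and also chosen after its values were seen, had a control mean of 3.76 ± 0.46 (SD, n = 2), against 0.79 at Nr0b1. The gaps to Esrrg and to Nr0b2 were larger than the control SDs of these genes, and were not tested. Of 32 paralogs outside the KLF family 25 were early in all profiles and 5 were late in all, namely Esrrg, Prdm8, Tbx15, Tbx18 and Tbx22. Tbx1 had the highest control mean, 4.78 ± 0.67 (SD, n = 2), with differences of -0.73 and 0.68 within the numbers. Tbx22, on chromosome X, had the lowest difference, from -1.35 and -1.63 in controls to -1.76 and -2.57 in dTAG. Prdm4 had the highest, 0.35.

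**Figure D5:**
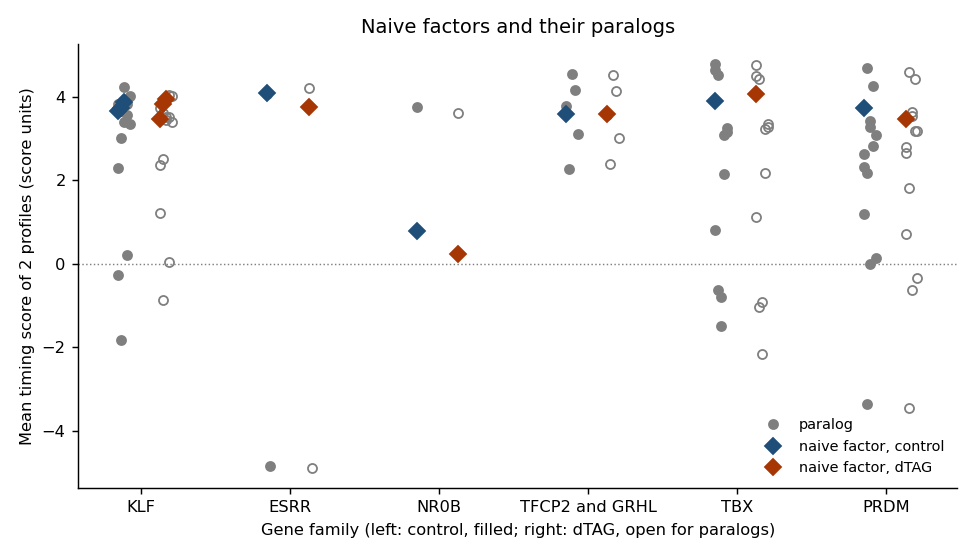
Mean timing score (score units, 2 profiles each) of the naive factor genes (diamonds) and their paralogs (circles) by gene family, control on the left and dTAG on the right of each family; the dotted line is 0. The KLF, TFCP2, TBX and PRDM naive factors lie above 3 while their families reach below that, Esrrb covers the control point of Esrra (4.06) far above Esrrg (-4.84), and Nr0b1 (0.79) lies below Nr0b2 (3.76).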

How the data were processed

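Control and dTAG samples were grouped by their descriptions; a sample whose labels show no replicate number was taken as replicate 1. Bowtie2, SAMtools, bedtools and mm10 are named in the submitters' processing notes, without versions. The deposited value is a signed timing score per 5 kb position, which the authors smoothed with Loess and quantile normalized, per the file headers and name. Within replicate number 1 the ranked values of both groups differed by at most 5.16e-05, and within number 2 by at most 0.000114. The ranked values of control 1 and of dTAG 2 with its sign reversed differed by at most 0.000117. Positions with a score in all 4 profiles numbered 514245 of 526745.

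Gene spans came from RefSeq on GRCm38.p6; 108 of 21627 protein-coding genes had no score at their midpoint and were left out. Differences are dTAG minus control, fitted with lmFit and eBayes of limma 3.58.1 under R 4.3.3 with no term but the group, and p-values are 2-sided and adjusted by Benjamini-Hochberg (threshold 0.05); checked on simulated data, this fit called most of the largest changes and none of the smaller ones. Alternatives changed the normalization, the position taken, the variance prior, the model and the profiles used. The 8 genes and the gene lists were chosen with earlier results of these data known. By rule, the genes named from a list had its highest or lowest control mean or difference; Jak1, Sos1, Fgfr2, Klf17, Prdm8, Tbx15, Tbx18, Esrra and Nr0b2 were named in addition, after their values were seen. Each factor's nearest gene on either side was named, as were the 3 most similar genes on other chromosomes for the factors with the highest and lowest mean. Tables were handled in Python 3.11.15 with pandas 2.3.3 and plots drawn with matplotlib 3.10.9.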

Additional observations from a re-analysis of the deposited data

How the results depend on the processing

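No gene of the 8 passed limma's threshold under 13 alternatives, of which the score at the annotated start covers 5 of the 8 genes and 4 leave 1 profile in a group, assumed to vary like the other group. With the replicate number as a block, 0 of 21519 genes passed and 1652 had an unadjusted p under 0.05, the SE of the 8 differences was 0.19 to 0.24, and the lowest p of the 8 was 0.0663 at Nr0b1 (adjusted p 0.661, limma). The deviations of profiles with the same number correlated at r = 0.64 over genes, which are not independent; whether a number stands for a shared culture or day is not stated. The block with trended and robust variance, added after seeing the data, called 558 genes and 0 of the 8 (adjusted p 0.163 at Nr0b1, limma). The number of genes called was 4 without dTAG 1 and 5 without dTAG 2, with the spread of the controls alone. The median difference of the 8 ranged from -0.41 to 0.27 when 1 profile was left out, while the median over all genes ranged from -0.28 to 0.20, because the numbers differ in level. Over the same settings the difference ranged from -0.84 to 0.44 at Klf2, -0.0669 to 0.26 at Klf4, -0.17 to 0.33 at Klf5, -0.41 to 0.40 at Tfcp2l1, -0.34 to 0.67 at Tbx3 and -0.72 to 0.20 at Prdm14. It kept its sign at Esrrb, from -0.56 to -0.13, and at Nr0b1, from -0.74 to -0.36. With profiles centred on their medians over genes, Tfcp2l1 differed by 0.0383, 6 positions around the 8 genes were shifted by 0.5 units and 5 of the 8 genes were above 0 in all profiles. The shifted positions numbered 12 at 0.25 units, 19 with all profiles on one distribution, and 130 to 316 when 1 profile was left out; without control 1 most were around Klf4 and Prdm14 (93 and 100 earlier), without control 2 around Nr0b1 (229 later), without dTAG 1 around Esrrb (80 later), Klf2 (60 later) and Nr0b1 (49 later), and without dTAG 2 around Prdm14 and Klf2 (53 and 40 earlier). Same signs in both numbers were found at 3 of the 5 genes with an annotated start, and could not be computed with 1 profile left out. The count within 100 kb of a peak ranged from 3 to 7 when a control was left out. No share over all genes or positions is given for shifted positions, early genes or peaks under these alternatives. These counts therefore cannot be set against the genome. The numbers differ in level, which leaving out 1 profile does not remove. The cause of these changes was not tested. Depth is unknown, so no counting error can be given.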
